A study of Homo sapiens with 2 samples.

Results

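Transcripts induced by signalling through the kinase ERK, and the feedback inhibitors among them, were examined in H1299 cells without and with metformin. H1299 is an established human non-small cell lung cancer line, and metformin is a biguanide drug used against type 2 diabetes. The control group was 1 library of untreated H1299 cells and the metformin group 1 library of the same line given 5 mM metformin. The sources used here give neither the duration of treatment nor how many cultures went into a library. The 10 genes were chosen by name, as known ERK output genes, out of 27685 gene IDs in the tables: EGR1, ETV1, ETV4, ETV5, DUSP4, DUSP5, DUSP6, SPRY2, SPRY4 and SPRED1. Earlier results of these data were known when these 10 genes were chosen. Each was present as a single row in both tables. Of these, 9 reached 1 TPM (an abundance corrected for transcript length and relative to all transcripts of its library) in at least 1 library, and DUSP4 did not. Where a pair of values is given below, the control library comes first and the metformin library second.

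ERK is the last kinase of the cascade from Ras through RAF and MEK. Active ERK phosphorylates transcription factors of the ETS family at serum response elements, where SRF binds, and relieves repression by CIC, and both routes raise a characteristic set of transcripts. Some of these encode transcription factors (EGR1 and the PEA3 group ETV1, ETV4 and ETV5). Others encode inhibitors that act back on the pathway: DUSP phosphatases remove phosphate from ERK, Sprouty proteins restrain signalling between receptors and RAF, and SPRED proteins bring the Ras inactivator neurofibromin to the membrane. Levels of these transcripts are widely used as a readout of ERK output in tumours with Ras pathway mutations.

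Aligned bases came to 5.80 Gb without and 6.40 Gb with metformin, which is an estimated 28.7 M and 31.7 M read pairs. With 1 library in each group there was no test, and no difference has a replicate check. The 95% intervals below are exact intervals that cover the counting of reads only. In bulk RNA, fewer cells carrying a transcript and less of it per cell cannot be told apart. The labelled cell line was checked against marker genes. VIM, which encodes vimentin, was present at 4378 TPM without and 4962 TPM with the drug. The other mesenchymal markers went in opposite directions, CDH2 from 22.9 to 19.1 TPM and FN1 from 18.2 to 23.8 TPM. Of 13 markers of leukocytes, endothelium, fibroblasts and lung lineage, 8 were at 0 in each library, the highest value was 0.609 TPM, and their sum was 1.49 TPM in control and 1.36 in metformin. The epithelial keratins KRT8 and KRT18 had 269 and 553 TPM in control against 521 and 954 TPM in metformin, whereas CDH1, EPCAM and KRT19 stayed at or under 0.253 TPM in both. Whether the keratins and the genes below moved for a common reason was not tested.

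Promoter sequence from RefSeq (GRCh38.p14) was matched for 6 of the 10 genes, in 13 windows of 300 bases, each from 250 bases before to 50 after a transcription start. ETV4, ETV5, DUSP4 and DUSP5 had no entry. The 250 bases before the start are shown for 3 genes that were lower in metformin (EGR1, ETV1 and DUSP6) and for SPRY2, which had the same level in both libraries. Capitals mark a CArG box, the core of a serum response element, or the CIC octamer, searched as TGAATGAA or TGAATGGA on both strands.
EGR1 (chr5:138465229-138465478, plus strand): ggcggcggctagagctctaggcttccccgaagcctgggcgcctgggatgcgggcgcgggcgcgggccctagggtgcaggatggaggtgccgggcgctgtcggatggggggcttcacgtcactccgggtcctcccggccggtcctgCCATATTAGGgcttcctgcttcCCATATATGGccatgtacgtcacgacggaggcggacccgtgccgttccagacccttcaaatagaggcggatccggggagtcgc
ETV1 (chr7:13991426-13991675, minus strand): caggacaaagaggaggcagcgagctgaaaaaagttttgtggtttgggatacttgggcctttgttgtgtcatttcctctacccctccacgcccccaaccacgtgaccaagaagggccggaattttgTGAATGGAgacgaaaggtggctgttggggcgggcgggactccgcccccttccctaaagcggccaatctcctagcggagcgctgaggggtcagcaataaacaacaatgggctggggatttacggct
DUSP6 (chr12:89352502-89352751, minus strand): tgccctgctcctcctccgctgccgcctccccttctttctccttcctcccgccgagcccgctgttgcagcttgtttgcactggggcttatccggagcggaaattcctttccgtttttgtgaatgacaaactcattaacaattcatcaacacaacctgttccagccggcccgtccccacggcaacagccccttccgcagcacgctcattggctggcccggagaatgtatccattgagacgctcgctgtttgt
SPRY2 (chr13:80341127-80341376, minus strand): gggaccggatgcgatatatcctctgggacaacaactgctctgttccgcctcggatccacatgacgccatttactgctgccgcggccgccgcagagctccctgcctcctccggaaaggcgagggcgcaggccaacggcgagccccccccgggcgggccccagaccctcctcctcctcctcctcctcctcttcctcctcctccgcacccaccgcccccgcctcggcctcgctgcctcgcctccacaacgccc
The EGR1 window held 2 CArG boxes, whose first bases lay 105 and 83 bases before the start, and 1.29% of all 35116 promoter windows held such a box. Of the 6 windows of ETV1, some of which overlap, 1 held the CIC octamer, 125 bases before that start, and this window was chosen for display because it did. The octamer was in 2.63% of all windows. None of the 13 windows held the exact letters CCGGAAG, 1 form of an ETS site (10.3% of all windows), or the AP-1 site TGANTCA (7.71%). These motifs were likewise searched on both strands. Shorter or other forms of an ETS site were not searched, so the windows may still hold them. The DUSP6, SPRY2, SPRY4 and SPRED1 windows held no CArG box and neither TGAATGAA nor TGAATGGA. Other spellings of the CIC octamer were not searched, so these windows may still hold one. These matches describe the letters of the windows. Binding was not measured.

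The ERK output genes differed in direction and size between the libraries. On the scale of log2(TPM + 1), metformin minus control, 8 of the 9 measured genes lay below 0, SPRY2 at -0.0008, and DUSP5 lay above it, with a median of -0.33 against -0.08 for all 14078 measured genes. Of all measured genes, 59.7% lay below 0, which is the share to set beside this count and those of the further lists below. EGR1, ETV1, ETV4 and DUSP6 were lower by 1.5-fold or more, 4 of 9, where 7.03% of all measured genes were, and none was higher by that much, where 5.4% of all were. Only ETV4 was lower by 2-fold or more (1.24% of all measured genes), and no member was higher by it (1.51% of all). All 9 were at 1 TPM or more in control. With the scale centred on the median of genes at 10 TPM or more, a shift of -0.09, the share of higher genes among all those past 1.5-fold moved from 43.4% to 60.6%. On that centred scale DUSP5 also passed 1.5-fold and DUSP6, at -0.53, no longer did. There 4.77% of all measured genes were lower by 1.5-fold or more and 7.33% higher. With the deposited coverage in place of TPM, or with a pseudocount of 5, 2 of the 9 were lower by 1.5-fold or more, and the share of all measured genes lower by that much fell as well, to 3.87% and 3.11%.

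**Figure D1:**
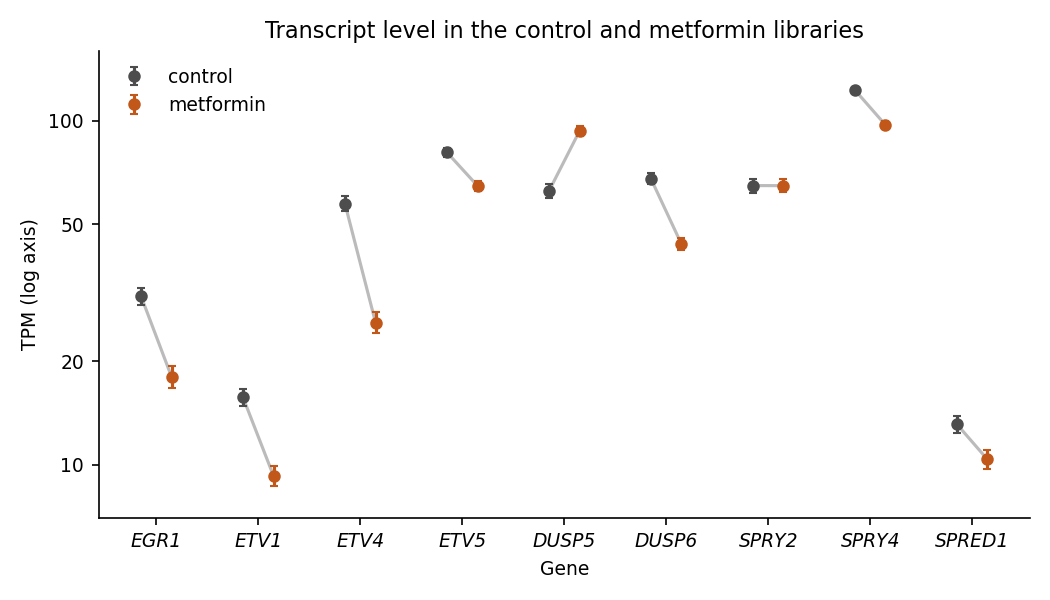
TPM on a log axis of the 9 measured ERK output genes in the control (grey) and metformin (orange) libraries, 1 library each, with exact 95% Poisson intervals that cover counting only. EGR1, ETV1, ETV4 and DUSP6 were lower in metformin, DUSP5 was higher, and SPRY2 was at 64.8 TPM in both.

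EGR1 is a zinc finger transcription factor and a classical immediate early gene, whose transcript appears within minutes of ERK activation and decays quickly. EGR1 (NCBI gene 1958, chromosome 5, 137801181 to 137805004 of hg19, plus strand, 2 exons) was present at 30.9 TPM in control against 18.0 TPM in metformin. The metformin value was 0.582 of control (95% counting interval 0.531 to 0.638). Among the measured genes, 3.45% had a lower difference. The other EGR genes were under 1 TPM in both libraries: EGR2 at 0.165 and 0.0968 TPM, EGR3 at 0.379 and 0.209, and EGR4 at 0.349 and 0.681. EGR1 was thus the one EGR gene at 1 TPM or more in either library.

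The PEA3 group of ETS factors, which CIC is known to repress, was lower in all 3 members, but by different amounts. ETV4 (NCBI gene 2118, chromosome 17, 41605211 to 41623800, minus strand, 13 exons) was present at 57.4 TPM in control against 25.9 TPM in metformin, a ratio of 0.451 (0.414 to 0.490). Its difference was the lowest of the 9, and 0.703% of measured genes had a lower one. ETV1 (NCBI gene 2115, chromosome 7, 13930856 to 14031050, minus strand, 14 exons) had 15.7 and 9.27 TPM, a ratio of 0.590 (0.540 to 0.645). ETV5 (NCBI gene 2119, chromosome 3, 185764106 to 185826901, minus strand, 13 exons) had 81.0 and 64.7 TPM, a ratio of 0.799 (0.764 to 0.836). ETV5 was the most abundant of the group in both libraries.

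Summed over the group, PEA3 transcripts came to 154 TPM in control and 99.9 in metformin. ETV5 made up 52.5% of that sum in control and 64.8% in metformin, while the share of ETV4 was 37.3% and 25.9%. The quotient of ETV4 over ETV5 was 0.709 in control and 0.400 in metformin, so it stood at 0.564 of its control value (0.512 to 0.621). ETV4 was thus lower relative to ETV5 by more than counting error, and the same held for ETV1 against ETV5 (0.738, interval 0.668 to 0.816). EGR1 and ETV1 moved by amounts that counting error does not separate (quotient at 0.986 of control, 0.867 to 1.12).

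The span of ETV4 overlaps that of the helicase gene DHX8 on the other strand by 16945 bases, and the sources used here do not say whether reads were assigned by strand. DHX8 was present at 31.1 TPM in control against 28.0 TPM in metformin, a ratio of 0.901, and the canonical GENCODE transcripts of the genes share 0 exon bases. The sum of both genes stood at 0.609 of control.

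**Figure D2:**
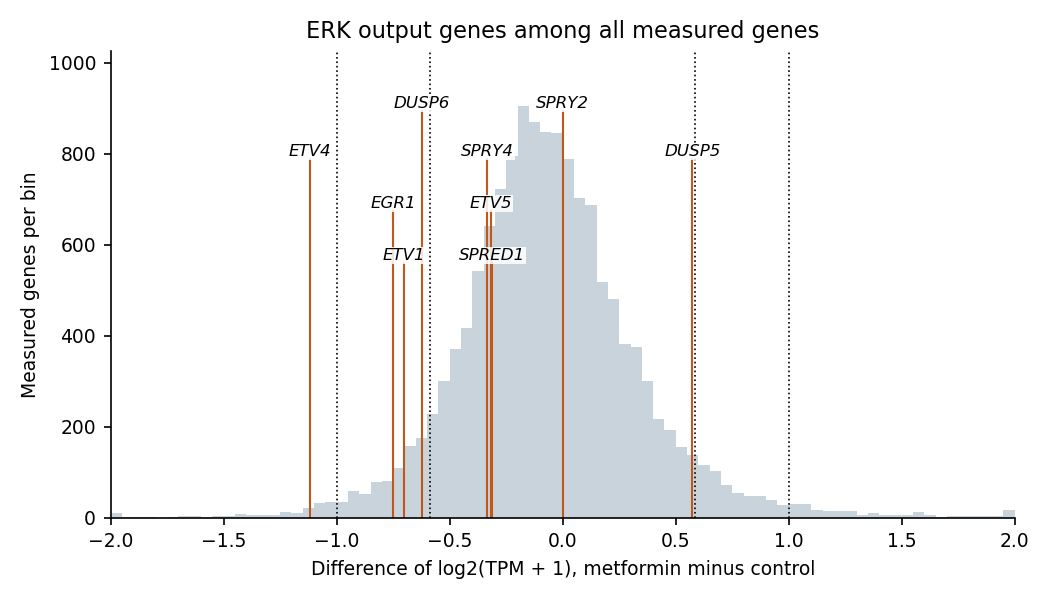
Number of measured genes (grey, bins of 0.05) by how far log2(TPM + 1) in metformin lay above or below control, with each ERK output gene as an orange line and values beyond 2 in size gathered in the end bins. Dotted lines stand at 1.5-fold and 2-fold; ETV4 lies below the 2-fold line at -1.12 and DUSP5, at 0.57, just under the 1.5-fold line at 0.585.

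Among the phosphatases, DUSP5 and DUSP6 went in opposite directions. Both are selective for ERK, DUSP5 in the nucleus and DUSP6 in the cytoplasm. DUSP5 (NCBI gene 1847, chromosome 10, 112257625 to 112271302, plus strand, 4 exons) was present at 62.5 TPM in control against 93.4 TPM in metformin, a ratio of 1.496 (1.41 to 1.58). On the log2(TPM + 1) scale its difference was 0.57, just short of 1.5-fold, and 94.4% of measured genes had a lower difference. DUSP6 (NCBI gene 1848, chromosome 12, 89741602 to 89746636, minus strand, 3 exons) had 67.9 and 43.8 TPM, a ratio of 0.645 (0.610 to 0.681).

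The libraries thus differed in which of DUSP5 and DUSP6 had the higher TPM, by a small margin in control. The quotient of DUSP6 over DUSP5 was 1.09 in control and 0.469 in metformin, which is 0.431 of the control value (0.398 to 0.467). Their sum changed little, from 130 TPM in control to 137 in metformin. DUSP4, an inducible nuclear phosphatase on chromosome 8 (NCBI gene 1846, 29190579 to 29208267, minus strand), was present at 0.0274 TPM in control against 0.0564 TPM in metformin, an estimated 1.85 and 4.31 read pairs. The ratio of 2.06 had a counting interval of 0.295 to 22.8, so no direction could be read at this depth.

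The other 7 phosphatases of this family had a median difference of 0.23, with 6 above 0. DUSP1 and DUSP8 were higher by 1.5-fold or more, where 5.4% of all measured genes were. None was lower by it, where 7.03% of all were. DUSP1, a nuclear phosphatase that acts on JNK and other stress kinases as well as ERK, was present at 17.2 TPM in control against 35.2 TPM in metformin, 2.05-fold higher (1.82 to 2.30). DUSP8, which is selective for stress kinases, was listed at 0.465 and 1.74 TPM and reached 1 TPM in metformin only, so it could not have been lower. Over the 6 at 1 TPM or more in control, 5 lay above 0, 1 was higher by 1.5-fold or more and the median was 0.18. DUSP7, a cytoplasmic phosphatase related to DUSP6, had 33.7 and 28.4 TPM, a ratio of 0.845 (0.783 to 0.912), and DUSP2 had 2.21 and 2.50 TPM. The counting intervals of the ratio included 1 for DUSP2 (0.752 to 1.71) and for DUSP9 (0.779 to 1.73), and with the trend over GC content and length removed the differences of both turned to -0.04.

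Over all 10 phosphatase genes of the family the sum was 218 TPM in control and 252 in metformin. DUSP6 was the largest part in control, at 31.1%, and made up 17.3% in metformin. DUSP5 went from 28.6% to 37.0% and DUSP1 from 7.87% to 13.9%. The quotient of DUSP1 over DUSP6 was 0.253 in control and 0.803 in metformin, 3.17-fold higher (2.79 to 3.61).

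**Figure D3:**
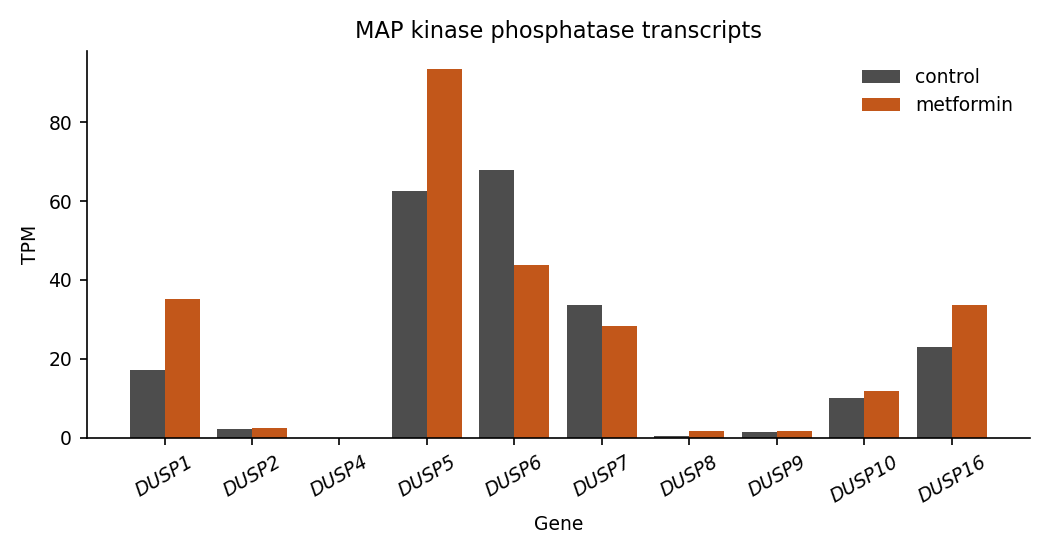
TPM of the 10 MAP kinase phosphatase genes in the control (grey) and metformin (orange) libraries, as bars from 0, 1 library each and without error bars. DUSP6 and DUSP7 were lower in metformin, DUSP1, DUSP5 and DUSP16 were higher, and DUSP4 was under 0.1 TPM in both.

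Of the Sprouty and SPRED members, SPRY4 and SPRED1 were lower in metformin by about as much as ETV5, and SPRY2 was level. SPRY4 (NCBI gene 81848, chromosome 5, 141689992 to 141704620, minus strand, 2 exons) was the most abundant of the 10 genes in both libraries, at 123 TPM in control against 97.3 TPM in metformin, a ratio of 0.791 (0.765 to 0.818). SPRY2 (NCBI gene 10253, chromosome 13, 80910111 to 80915250, minus strand, 2 exons) was present at 64.8 TPM with and without metformin (ratio 0.999, interval 0.938 to 1.07). SPRED1 (NCBI gene 161742, chromosome 15, 38545052 to 38649450, plus strand, 7 exons) had 13.1 and 10.4 TPM, a ratio of 0.790 (0.726 to 0.859). SPRY4 and SPRED1 thus had nearly the same ratio, and the interval of SPRY2 included 1.

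SPRY4 and SPRY2 differed from each other by more than counting error, since their quotient went from 1.90 in control to 1.502 in metformin, 0.792 of control (0.737 to 0.851). The transcript SPRY4-IT1 lies inside the span of SPRY4 on the same strand and shares 0 bases with the exons of its canonical transcript. SPRY4-IT1 was present at 14.6 TPM in control against 7.99 TPM in metformin, a ratio of 0.547, and the sum of both stood at 0.765 of control. The difference of SPRY2 was -0.0008 and turned to 0.09 on the centred scale and 0.08 with trimmed mean scaling, so its direction depends on the scaling.

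Of the relatives outside the 10 genes, SPRY1 was present at 8.83 TPM in control against 5.46 TPM in metformin, a ratio of 0.619 (0.513 to 0.745), the lowest of the Sprouty genes. SPRED2 had 59.2 and 42.4 TPM, a ratio of 0.715 (0.679 to 0.753). SPRED3, which was picked once its values were known, had 24.6 and 25.7 TPM, with an interval of the ratio of 0.974 to 1.12. SPRED2, not SPRED1, made up most of the SPRED transcripts, with 61.1% in control and 54.0% in metformin. Summed Sprouty transcripts came to 197 and 168 TPM, and summed SPRED transcripts to 96.9 and 78.4 TPM.

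The order of the levels also differed between the libraries. In control it ran from SPRY4 through ETV5, DUSP6, SPRY2, DUSP5, ETV4, EGR1 and ETV1 to SPRED1, and the counting intervals of DUSP6 and SPRY2, of SPRY2 and DUSP5, and of DUSP5 and ETV4 overlapped. In metformin DUSP5 stood next to SPRY4, at 93.4 and 97.3 TPM with overlapping intervals. SPRY2 and ETV5 followed with overlapping intervals, then DUSP6, ETV4 and EGR1, and SPRED1 and ETV1 came last, again overlapping. The 9 genes summed to 516 TPM in control and 428 in metformin, and DUSP5 went from 12.1% to 21.8% of that sum.

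The genes differed widely in transcript length and base composition. Across all measured genes, which are not independent, the difference had a Spearman correlation of 0.35 with GC content (n = 13066). Canonical transcripts ran from 2286 bases (SPRY2) to 7270 (SPRED1) and from 36.3% GC (SPRED1) to 60.6% (ETV4). The lower genes stood at both ends of this range, with ETV1 at 37.1% GC, DUSP6 at 46.5%, EGR1 at 55.3% and ETV4 at 60.6%. After removal of the trend over GC content and length, the differences were -1.26 for ETV4, -0.84 for EGR1, -0.60 for DUSP6 and -0.51 for ETV1. The difference of SPRED1 went from -0.31 to -0.11 and that of DUSP5 from 0.57 to 0.48. ETV1 was then short of 1.5-fold.

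The wider pathway was described by 6 further lists of 80 genes, of which 71 were measured. Of these 71, 3 were lower and 11 higher by 1.5-fold or more, where 7.03% of all measured genes were lower and 5.4% higher, and the median was -0.03. The same shares are to be set beside the counts of the single lists. Among the 69 at 1 TPM or more in control, 3 were lower and 9 higher, with a median of -0.04.

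In the cascade from Ras to ERK, 19 of 21 genes were measured, 13 lay below 0 and the median was -0.08, the same as for all genes to this precision. MAPK3, which encodes a form of ERK, had 56.0 TPM in control against 52.4 TPM in metformin, with an interval of the ratio of 0.865 to 1.01. GRB2, the adaptor that links receptors to the Ras activator SOS, was listed at 45.3 and 102 TPM, 2.24-fold higher (2.12 to 2.37). It was the only cascade gene past 1.5-fold, and none was lower by it. FRS2, a docking protein of FGF receptors, stood at 0.769 of control (0.711 to 0.832) and RPS6KA3, an ERK-activated kinase, at 0.814 (0.777 to 0.852).

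Nuclear factors that connect ERK to these genes were all measured (12 of 12), with 9 below 0 and a median of -0.17. The repressor CIC was present at 78.3 TPM in control against 77.8 TPM in metformin, a ratio of 0.994 (0.964 to 1.02). ELK3, an SRF partner of the ETS family, had 127 and 84.4 TPM, a ratio of 0.663 (0.639 to 0.688), and was the only one past 1.5-fold. Its difference of -0.59 lay at that line, and it was short of it at -0.50 both on the centred scale and with the trend over GC content and length removed. CREB1 was present at 11.8 TPM in control against 8.77 TPM in metformin, 0.743 of control. METTL21A, which overlaps CREB1 on the other strand, had 79.5 and 57.5 TPM. Whether reads of METTL21A entered the CREB1 values was not tested. ETS1 was higher by 1.25-fold (1.21 to 1.28) and ATXN1, a partner of CIC that overlaps ATXN1-AS1 on the other strand, by 1.16-fold (1.07 to 1.26).

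Other immediate early genes had a median of 0.16 over 16 measured of 19, with 9 above 0 and 7 below. Of these, 6 were higher by 1.5-fold or more, where 5.4% of all measured genes were. None was lower by it, where 7.03% of all were. ATF3, a stress-induced transcription factor, was listed at 8.11 and 17.5 TPM, 2.15-fold higher (1.82 to 2.56), and NR4A1, an orphan nuclear receptor, at 10.3 and 19.2 TPM, 1.86-fold higher (1.63 to 2.14). The other 4 were IER3, CCN1, ZFP36 and NR4A3, named after their values were seen, and NR4A3 reached 1 TPM only in metformin. Over the 15 at 1 TPM or more in control, 5 were higher by 1.5-fold or more and the median was 0.06. At the low end, FOSL1, an AP-1 subunit whose protein ERK stabilises, had 653 and 488 TPM, a ratio of 0.747 (0.729 to 0.766), and KLF10 stood at 0.729 (0.684 to 0.778).

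Delayed ERK output genes outside the 10 split as well, with 7 of 10 measured, 5 below 0 and a median of -0.03. VGF, the precursor of secreted neuropeptides, was present at 181 TPM in control against 85.5 TPM in metformin, a ratio of 0.473 (0.452 to 0.494). LIF, a cytokine of the interleukin 6 family, was listed at 10.4 and 22.0 TPM, 2.11-fold higher (1.90 to 2.35), and HBEGF, a ligand of the EGF receptor, at 15.9 and 27.7 TPM, 1.75-fold higher (1.56 to 1.96). EPHA2, an ephrin receptor, stood at 0.837 of control (0.808 to 0.868). In the list of other feedback inhibitors, which holds SPRY1 and SPRED2 above, 10 of 11 were measured with a median of -0.06. ERRFI1, an inhibitor of the EGF receptor, was listed at 464 and 677 TPM, 1.46-fold higher (1.43 to 1.49), and IL17RD, an inhibitor of FGF signalling, at 3.81 and 4.82 TPM.

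**Figure D4:**
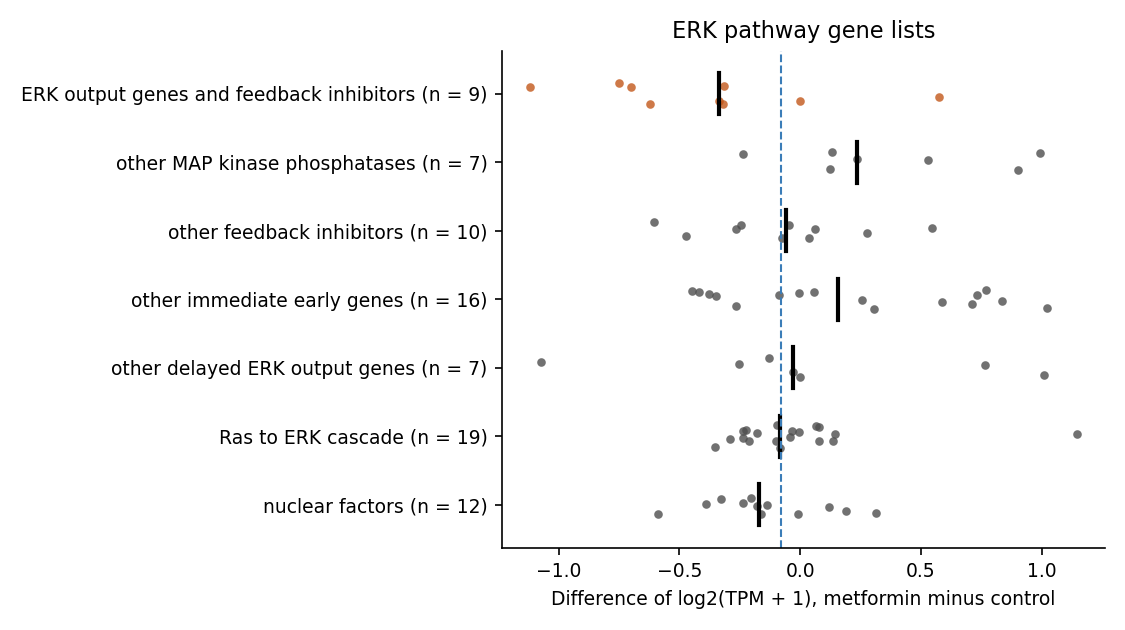
Difference of log2(TPM + 1), metformin minus control, of each measured gene of the ERK output genes (orange) and of 6 further lists of the pathway (grey), with list medians as black bars and the median of all measured genes as a dashed line at -0.08. The ERK output genes had the lowest median, -0.33, and the other phosphatases the highest, 0.23; point heights within a list carry no meaning.

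**Figure D5:**
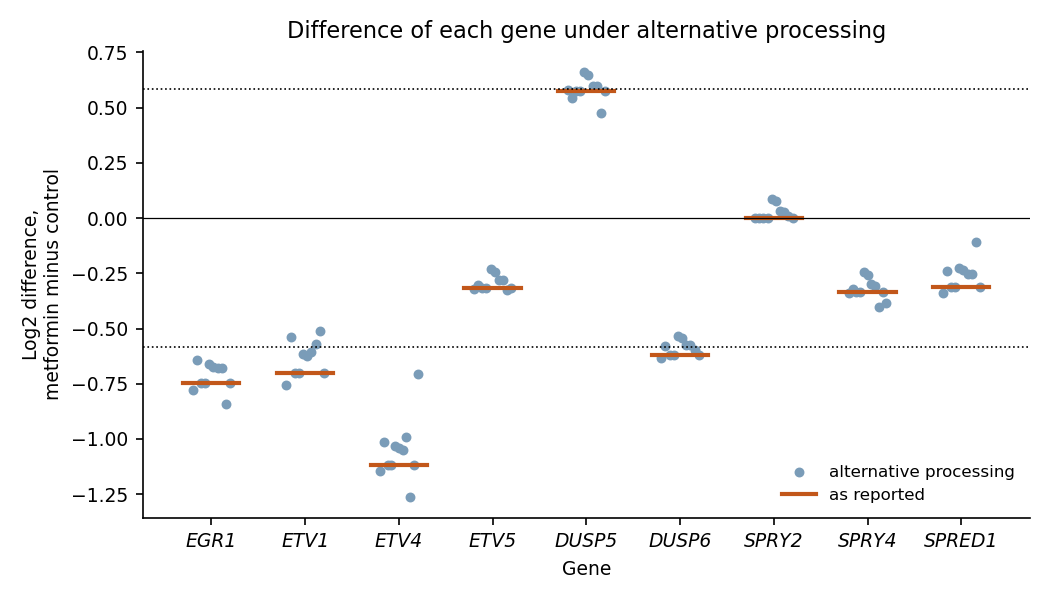
Difference of each of the 9 genes, metformin minus control, as reported (orange bar) and under each alternative processing (blue points), with dotted lines at 1.5-fold. ETV4 and EGR1 stayed below the lower line under each alternative, and ETV1, DUSP6 and DUSP5 crossed a line under some.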

How the data were processed

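RNA of 1 control and 1 metformin library of H1299 was prepared with a TruSeq stranded mRNA kit, per the labels' protocols. Bowtie2 and hg19 are named for the mapping per the labels' protocols, and Trimmomatic 0.38 and HISAT2 per the submitters' processing notes. No source used here names the abundance program. TPM, FPKM and coverage per gene were deposited by the authors, per the file headers. Coverage was taken here to be mean read depth over the exons. TPM was used for the values, FPKM and coverage for alternatives.

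NCBI gene IDs were given symbols from RefSeq (GRCh38.p14, names only), which matched 27559 of 27685, and rows of an ID were summed. Gene coordinates are those of the tables, on hg19, and promoter coordinates are on GRCh38.p14. Aligned bases came from the largest quotient of coverage over FPKM. A read pair was taken as 202 bases, the most common base total of genes spanning 300 to 3000 bases (31 of 187 in control and 43 of 174 in metformin). Pairs per gene used canonical transcript lengths of GENCODE 44, and these estimates summed to 107% of the total. From them came exact 95% intervals (Clopper-Pearson for ratios, Poisson for levels, conditional exact for quotients of genes).

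A gene was measured at 1 TPM or more in at least 1 library. Differences are of log2(TPM + 1), which understates those of low genes, and counts past 1.5-fold and 2-fold use them, while ratios in the text are of plain TPM. There was no test. All 10 genes were named, with genes that overlap them, the 2 lowest and 2 highest measured genes of each further list, MAPK3 and CIC, and a few relatives that complete a family. Some genes this rule took are not reported here. The genes and lists were chosen with earlier results of these data known. List values over genes at 1 TPM or more in control were added after seeing the data. In all, 10 kinds of alternative processing were run, and the steps were tested on simulated data. Python 3.11.15 was used.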

Additional observations from a re-analysis of the deposited data

How the results depend on the processing

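No paired analysis was possible because each group has 1 library. EGR1, ETV1, ETV4 and DUSP6, the 4 genes past 1.5-fold, kept their direction under the 10 alternatives, and ETV4 and EGR1 stayed past 1.5-fold in each. The count of genes lower by 1.5-fold was 2 with a pseudocount of 5 and 2 with coverage per Gb, against 4 as reported, while the share of all measured genes lower by it was 3.11% and 3.87% against 7.03%. The count higher by 1.5-fold was 1 (DUSP5) on the centred scale, with trimmed mean scaling, with FPKM and with coverage, against 0, where the share of all measured genes was 7.33%, 7.03%, 4.03% and 3.7% against 5.4%. The count lower by 2-fold was 0 with coverage, where ETV4 stood at -0.99 and 0.419% of all measured genes were lower by 2-fold. The median of the genes ranged from -0.40 to -0.25, and stayed below 0. On the centred scale 3 list medians changed sign, from -0.06 to 0.03 for the other feedback inhibitors, from -0.03 to 0.06 for the other delayed output genes and from -0.08 to 0.01 for the cascade. Trimmed mean scaling moved the first to 0.02 and the second to 0.05 and left the cascade at -0.01, and FPKM and coverage each moved the delayed genes just above 0. Values of DUSP4 and DUSP8 are limited by depth.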
